A study of Homo sapiens with 9 samples.

Results

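A set of 10 genes of the liver's plasma proteins were followed in uCaco-2 cells, the undifferentiated, proliferating form of the human Caco-2 line. Caco-2 derives from a colon adenocarcinoma and serves as a model of the intestinal epithelium. They were taken by symbol from the deposited count table and make up 10 of its 60591 symbols, namely FGA, FGB and FGG (the fibrinogen chains), F2, F5, F7 and F10 (clotting factors), SERPINA1 (alpha-1-antitrypsin), AFP (alpha-fetoprotein) and TTR (transthyretin). Cultures received 300 μM CoCl2 (cobalt chloride), 5 μM OD (an oxyquinoline derivative) or neither for 24 h, all with 0.5% DMSO. Both agents are used as chemical activators of the hypoxia-inducible factor (HIF) pathway, and the comparisons ask how these genes respond to each of them. Each condition had 3 biological replicates of this single cell line, and mRNA was sequenced as poly(A)-selected libraries.

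Hepatocytes secrete fibrinogen, most clotting factors and the major carrier proteins and protease inhibitors of blood plasma. Fibrinogen is built from paired Aα, Bβ and γ chains, and thrombin, the active form of prothrombin, cleaves it so that it polymerises into a clot. Tissue factor with activated factor VII starts coagulation by activating factor X, which with its cofactor factor V converts prothrombin. Several of these genes are also transcribed in Caco-2 cells, a line known for enterocyte-like and fetal-type gene expression.

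The libraries held 15998136 to 24209427 counts, and the TMM factors of edgeR, which correct for composition, were 0.770 to 0.795 with CoCl2, 1.11 to 1.12 in control cells and 1.14 to 1.15 with OD. Levels are given as CPM, which express the counts per equal library total after applying these factors. All 10 genes were among the 15944 symbols that passed the filter on low counts. Of 10 intestinal epithelial markers 9 were tested, while CDX1 was at 0 in every library and LGALS4 had 5 to 33 counts. The summed level of these markers was 10810 to 11339 CPM in control cells, 12909 to 13840 CPM with CoCl2 and 10143 to 10699 CPM with OD, mostly KRT8 and KRT18. Not every marker followed the sum, with means of 613 CPM in control cells and 112 CPM with CoCl2 for VIL1 (villin) and 4.49 and 1.74 CPM for KRT20. Of 15 hepatocyte markers 9 were tested, and their sum, mostly APOA2, was 327 to 373 CPM in control cells, 425 to 445 CPM with CoCl2 and 289 to 307 CPM with OD. The hepatocyte enzymes TAT, CYP2E1, CYP3A4, CYP8B1 and ARG1 had 0 to 5 counts per library, and albumin (ALB) had 233 to 415. The other sums were those of 6 fibroblast markers (22.9 to 26.8, 18.4 to 20.8 and 32.0 to 33.4 CPM in control, CoCl2 and OD), 6 leukocyte markers (37.5 to 43.4, 54.7 to 58.7 and 35.6 to 39.1 CPM, mostly LYZ), 6 endothelial markers (2.94 to 3.39, 2.62 to 3.25 and 3.09 to 3.54 CPM) and 5 platelet markers (0.617 to 1.08, 0.498 to 0.839 and 2.04 to 3.30 CPM). The endothelial sums overlapped in every pair of conditions, the leukocyte sums in control and OD and the platelet sums in control and CoCl2. The part of any marker sum in the results was not tested. In bulk RNA, fewer cells of a type and less RNA per cell cannot be told apart.

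The fibrinogen genes lie together on chromosome 4 and F7 and F10 lie side by side on chromosome 13, so the sequences before their transcription starts are shown first, as neighbours whose mRNA levels moved unequally. On GRCh38, FGB spans chr4:154563011-154572807 on the + strand, FGA spans chr4:154583126-154590742 on the − strand and FGG spans chr4:154604134-154612967 on the − strand, within 49957 bases. F7 spans chr13:113105788-113120685 and F10 spans chr13:113122799-113149529, both on the + strand and 2113 bases apart. Each line gives the 250 bases upstream of the RefSeq start nearest to the annotated gene start (GRCh38.p14), 5′ to 3′ in the direction of transcription. Capitals mark matches on either strand to any of 4 motifs, which did not overlap here.
FGB (chr4:154562761-154563010, + strand): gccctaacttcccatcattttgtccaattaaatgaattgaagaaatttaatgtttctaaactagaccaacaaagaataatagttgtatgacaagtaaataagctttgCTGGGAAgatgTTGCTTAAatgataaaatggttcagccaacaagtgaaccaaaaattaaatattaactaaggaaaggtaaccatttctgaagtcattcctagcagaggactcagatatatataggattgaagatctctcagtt
FGA (chr4:154590743-154590992, - strand): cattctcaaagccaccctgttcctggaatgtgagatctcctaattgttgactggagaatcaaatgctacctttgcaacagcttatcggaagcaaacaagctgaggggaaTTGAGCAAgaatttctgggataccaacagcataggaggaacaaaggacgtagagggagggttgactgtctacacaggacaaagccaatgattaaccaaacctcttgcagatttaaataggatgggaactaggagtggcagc
FGG (chr4:154612657-154612906, - strand): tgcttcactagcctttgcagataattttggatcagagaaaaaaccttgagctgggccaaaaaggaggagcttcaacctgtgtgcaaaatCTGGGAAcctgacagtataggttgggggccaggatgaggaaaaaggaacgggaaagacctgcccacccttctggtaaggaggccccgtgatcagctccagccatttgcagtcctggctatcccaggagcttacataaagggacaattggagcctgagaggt
F7 (chr13:113105541-113105790, + strand): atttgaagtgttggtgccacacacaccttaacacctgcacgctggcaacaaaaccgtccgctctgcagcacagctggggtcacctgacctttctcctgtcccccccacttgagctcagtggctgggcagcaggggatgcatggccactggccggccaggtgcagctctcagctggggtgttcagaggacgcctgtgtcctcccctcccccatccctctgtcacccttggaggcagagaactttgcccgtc
F10 (chr13:113122549-113122798, + strand): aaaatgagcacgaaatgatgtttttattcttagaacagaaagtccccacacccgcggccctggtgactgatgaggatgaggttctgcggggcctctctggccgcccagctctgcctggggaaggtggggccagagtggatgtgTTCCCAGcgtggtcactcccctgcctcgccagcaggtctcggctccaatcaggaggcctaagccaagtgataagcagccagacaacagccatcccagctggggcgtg

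The motifs searched were CAAAGTC (an HNF4 core), TTGCNNAA (C/EBP), ACGTG (the HIF core) and CTGGGAA (a STAT3 element of acute-phase genes), which 2.91%, 9.05%, 18.5% and 9.15% of 35116 RefSeq promoter windows of this length held. FGA and FGB each held the C/EBP letters, and FGB also the STAT3 letters, whereas the FGG window, whose start lies 311 bases from the annotated one, held the STAT3 letters alone. The F10 window held the STAT3 letters and the F7 window held none of the marked motifs. Among the other genes with a window, AFP held the C/EBP letters, while the windows of F2, F5 and SERPINA1 held none of the marked motifs. The start used for AFP lies 5083 bases from the annotated one. No match to the HNF4 or HIF letters was found in the 11 windows of 9 genes. A match is a description of letters and not a binding site.

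Per length of exon sequence in control cells, SERPINA1 was highest at 59.3 ± 2.65 CPM per kb (SD, n = 3, as for all SDs here). Next came TTR at 22.1, F2 at 17.7, AFP at 11.8 and FGG at 10.1 CPM per kb. F10 (6.68), FGA (5.91), FGB (3.92), F7 (3.18) and F5 (0.0475 CPM per kb) followed. The libraries of F10 and FGA overlapped, as did those of FGB and F7, and all other neighbours in this order were apart. With CoCl2, FGA at 9.88 CPM per kb stood above F10 (5.41), FGB (3.68), FGG (3.30) and F7 (0.395), of which FGB and FGG overlapped. With OD, FGA at 6.76 CPM per kb again stood above F10 (5.30) and FGG (4.63).

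**Figure D1:**
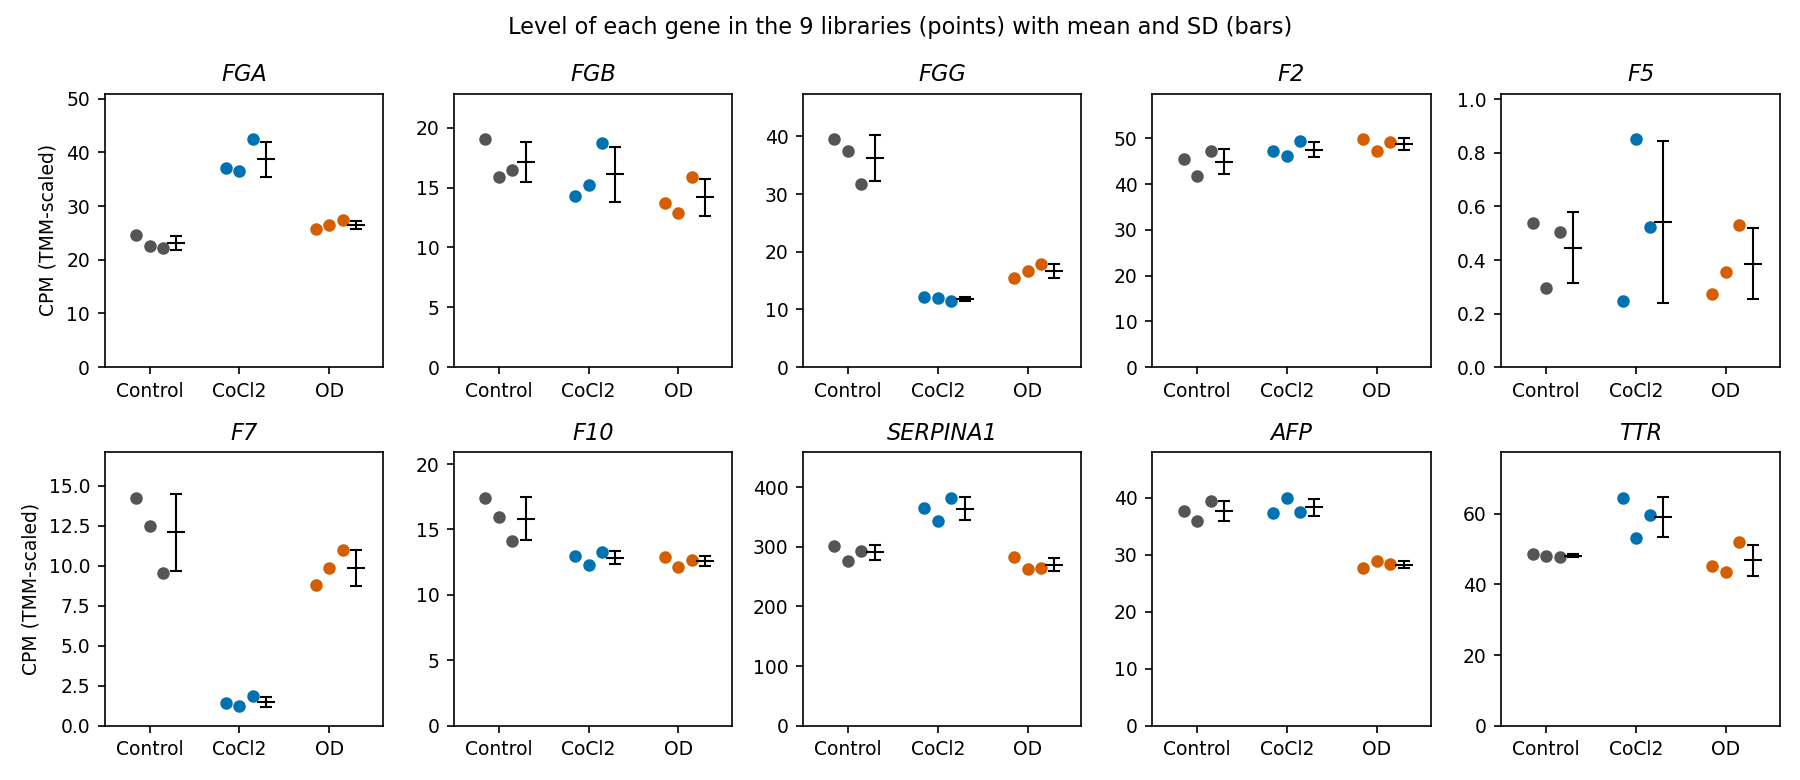
Level in CPM (vertical axes, each from 0) of the 10 genes in each library (points) with the mean and SD of the 3 replicates (bars), for control, CoCl2 and OD. FGG sits between 31.7 and 39.5 CPM in control cells and below 18 CPM in all libraries with CoCl2 or OD, and F7 falls below 2 CPM with CoCl2 alone.

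With CoCl2, most of these genes changed by less than 0.86 on the log2 scale, the median size of change over all tested genes. With OD the share of them called, 10%, was near that of all genes, as was the share called lower with CoCl2, 20%. A call required both a Benjamini-Hochberg adjusted p below 0.05 in edgeR's quasi-likelihood test over all tested genes and at least a doubling or halving, a log2 fold change beyond ±1. With CoCl2, 2 of the 10 genes were called, FGG and F7, both lower, against 43.2% of all tested genes called in either direction and 23.4% called lower. With OD only FGG was called, lower, where 13.3% of all genes were called and 4.16% were lower. CoCl2 against OD gave 1 call, F7 lower with CoCl2, beside 41.3% of all genes called and 23.8% lower. No member was called higher in any comparison by edgeR or by DESeq2, and at an unadjusted p under 0.05 edgeR placed 3 higher with CoCl2, 2 with OD and 5 in CoCl2 against OD. Beside this 0, 19.9%, 9.09% and 17.5% of all genes were called higher in these comparisons. By the adjusted p alone 6 of the 10 genes passed with CoCl2, 7 with OD and 7 in CoCl2 against OD, where 83.2%, 65.6% and 83.5% of all genes passed.

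Over the 10 genes the median log2 fold change with CoCl2 was 0.056, beside −0.049 over all tested genes. The corresponding medians were −0.25 and −0.010 for OD, and 0.27 and −0.054 for CoCl2 against OD. In size, regardless of direction, their median change was 0.30 for CoCl2 and 0.25 for OD, against 0.86 and 0.38 over all genes. The libraries did not overlap for 6 genes with CoCl2, 5 with OD and 6 in CoCl2 against OD, where 83.4%, 68% and 83.8% of all genes did not overlap. Scaling by library size alone moved the median of all genes with CoCl2 to −0.55 and turned the members' median to −0.45. For CoCl2 against OD it moved these medians to −0.60 and −0.27. Both treatments are compared with the same 3 control libraries.

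**Figure D2:**
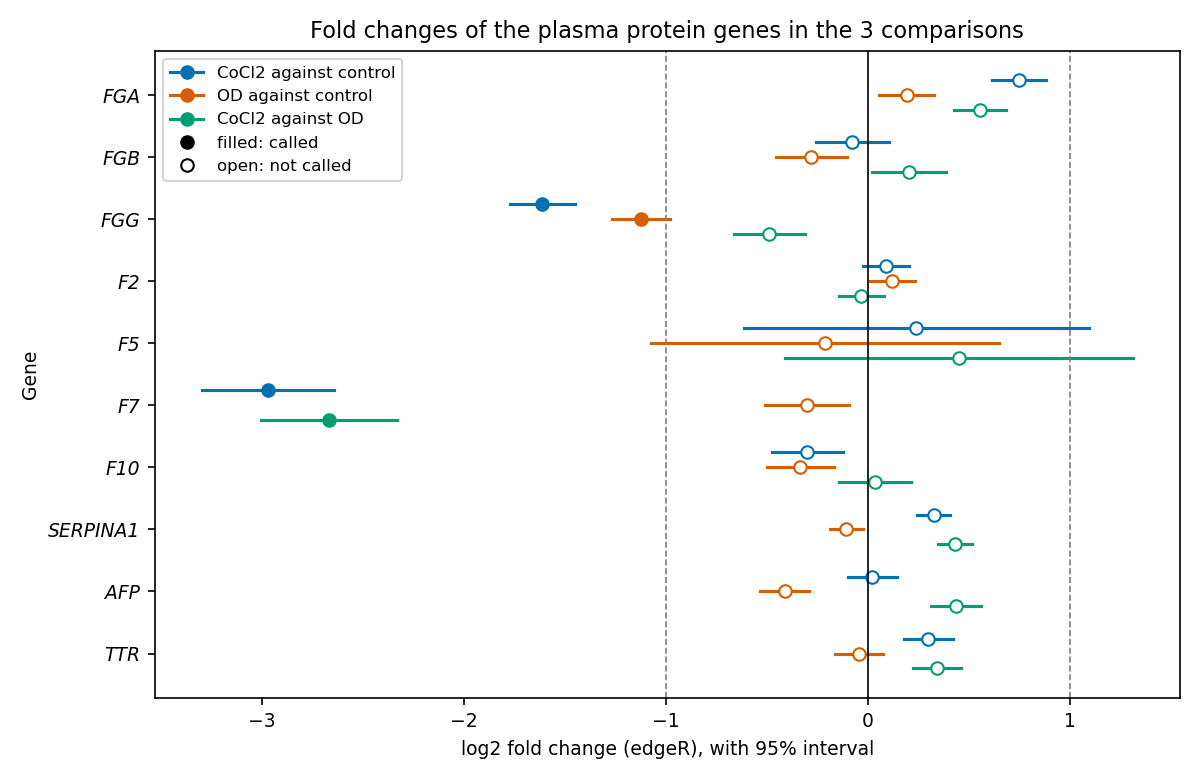
The log2 fold change of each gene (horizontal axis, with its 95% interval as a line) in the 3 comparisons, with filled points for called genes and dashed lines at −1 and 1. Filled points stand only at FGG (−1.61 with CoCl2, −1.12 with OD) and F7 (−2.97 with CoCl2, −2.67 for CoCl2 against OD).

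The 3 fibrinogen chains did not move together. FGG, the γ chain, fell 3.06-fold with CoCl2 and 2.18-fold with OD, FGA was 1.68-fold higher with CoCl2, under the fold threshold, and FGB was not called with either treatment. FGG stood at 39.5, 37.4 and 31.7 CPM in the control libraries, at 12.2, 11.9 and 11.5 CPM with CoCl2 and at 15.4, 16.7 and 17.9 CPM with OD. All 6 treated libraries lay below all 3 controls, and those with CoCl2 below those with OD. Its log2 fold change was −1.61 (SE 0.082, adjusted p = 3.44e-27) with CoCl2 and −1.12 (SE 0.074, adjusted p = 3.03e-21) with OD in edgeR. With a test against a log2 fold change of 1 itself (glmTreat) the OD call was lost at an adjusted p of 0.184. CoCl2 against OD gave −0.49 (SE 0.091, adjusted p = 2.2e-06), which was not called, though scaling by library size alone made it −1.03 and called.

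FGA, the Aα chain from which thrombin releases fibrinopeptide A, stood at 24.7, 22.5 and 22.3 CPM in control cells, at 37.1, 36.5 and 42.5 CPM with CoCl2 and at 25.7, 26.4 and 27.3 CPM with OD. The libraries of the 3 conditions did not overlap, with CoCl2 highest and control lowest. Its log2 fold change was 0.75 (SE 0.068, adjusted p = 1.44e-15) with CoCl2 and 0.19 (SE 0.070, adjusted p = 0.0129) with OD, both uncalled, and the value with CoCl2 was 0.24 under library size alone. CoCl2 against OD gave 0.56 (SE 0.066, adjusted p = 1.97e-11), but 0.010 (adjusted p = 0.890) under library size alone.

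FGB, the Bβ chain, stood at 19.0, 15.9 and 16.5 CPM in control cells, at 14.3, 15.2 and 18.7 CPM with CoCl2 and at 13.7, 12.9 and 15.9 CPM with OD. The conditions overlapped in every pair. Its log2 fold change was −0.076 with CoCl2 (95% interval −0.26 to 0.10, adjusted p = 0.442), or −0.58 (adjusted p = 6.52e-07) under library size alone, and −0.28 with OD (95% interval −0.46 to −0.10, adjusted p = 0.00551). That of CoCl2 against OD was 0.20 (adjusted p = 0.0410), or −0.34 under library size alone.

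The balance between the chains was read within each library, where it does not depend on scaling. FGG had 1.60, 1.66 and 1.43 counts per FGA count in control cells, 0.328, 0.326 and 0.272 with CoCl2 and 0.601, 0.632 and 0.655 with OD. No 2 conditions overlapped. The FGG to FGA ratio was thus 5.07-fold lower with CoCl2 and 2.48-fold lower with OD than in control cells, and 2.04-fold lower with CoCl2 than with OD. The FGB to FGA ratio was 1.79-fold lower with CoCl2, 1.39-fold lower with OD and 1.29-fold lower for CoCl2 against OD. Each of these 6 differences had an exact two-sided permutation p of 0.1 (0.1 after Benjamini-Hochberg adjustment), the smallest that 3 libraries against 3 can give.

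Per kb of exon sequence, the share of FGG in the summed chain mRNA was 50.5% ± 2.16 in the controls, 19.7% ± 1.90 with CoCl2 and 31.6% ± 0.880 with OD. FGA made up 29.8% ± 1.16, 58.6% ± 0.674 and 46.2% ± 1.30. FGB made up 19.7% ± 1.18, 21.7% ± 1.55 and 22.1% ± 1.43. The leading chain was FGG in the 3 control libraries and FGA in the 6 treated ones.

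**Figure D3:**
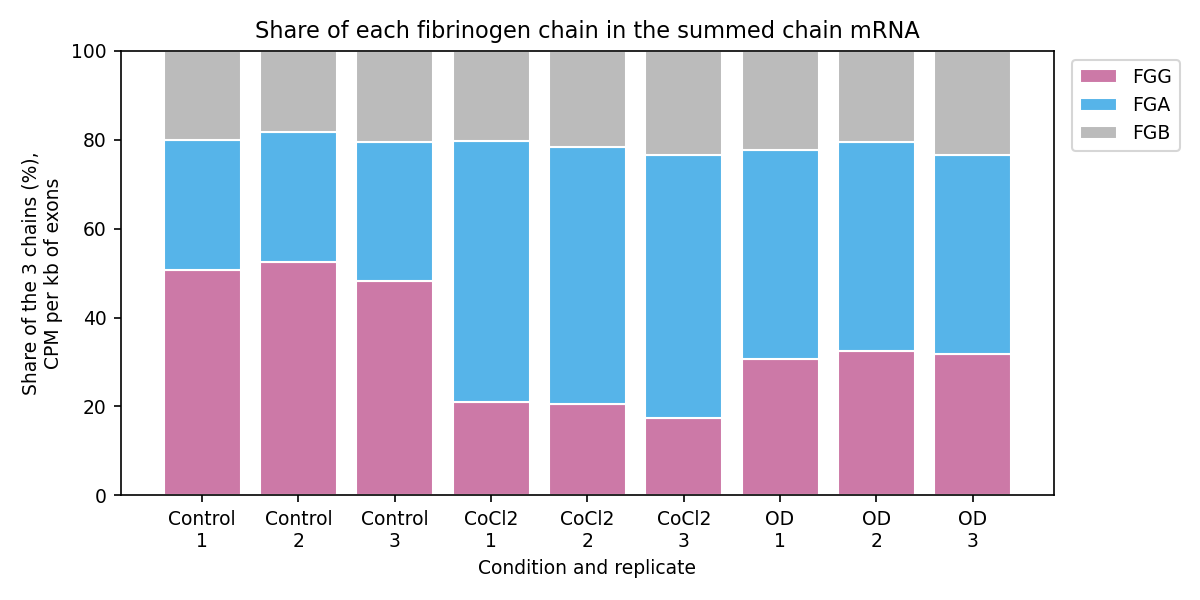
Share of each fibrinogen chain in the summed CPM per kb of the 3 chains (vertical axis, percent) in each of the 9 libraries. FGG takes 48.3% to 52.6% in control cells, 17.5% to 21.0% with CoCl2 and 30.7% to 32.4% with OD, and FGA takes most of the share it leaves.

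Among clotting factor genes, F7 fell with CoCl2 and F10 beside it differed far less. F7 encodes the protease that binds tissue factor. It stood at 14.3, 12.5 and 9.54 CPM in control cells, at 1.43, 1.24 and 1.84 CPM with CoCl2 (16 to 35 counts) and at 8.76, 9.85 and 10.97 CPM with OD. The libraries with CoCl2 lay apart below all others, while those of control and OD overlapped. With CoCl2 the level was 7.85-fold lower (log2 fold change −2.97, SE 0.167, adjusted p = 1.10e-22). With OD the log2 fold change was −0.30 (95% interval −0.51 to −0.093, adjusted p = 0.0114), which was not called. It was −0.16 (adjusted p = 0.228) without Control replicate 1 and −0.44 without Control replicate 3, and DESeq2 on 9 libraries gave an adjusted p of 0.163 for F7. The difference between the treatments was itself tested and F7 was 6.36-fold lower with CoCl2 than with OD (log2 fold change −2.67, SE 0.172, adjusted p = 3.05e-20).

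F10 encodes factor X, which activated factor VII cleaves. It stood at 17.4, 15.9 and 14.1 CPM in control cells, at 12.9, 12.3 and 13.3 CPM with CoCl2 and at 12.9, 12.2 and 12.7 CPM with OD. The treated libraries lay below the controls and overlapped each other. Its log2 fold change was −0.30 (SE 0.089, adjusted p = 0.00181) with CoCl2 and −0.33 (SE 0.085, adjusted p = 0.000456) with OD, neither called. The value with CoCl2 was −0.80 under library size alone. Between the treatments it was 0.035 (95% interval −0.14 to 0.21), or −0.51 under library size alone. Of its exon bases, 4.13% are shared with another annotated gene.

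The F7 to F10 count ratio, a measure chosen after these values were seen, was 0.818, 0.782 and 0.675 in control cells, 0.111, 0.101 and 0.138 with CoCl2 and 0.680, 0.810 and 0.866 with OD. It was 6.54-fold lower with CoCl2 than in control cells (exact permutation p = 0.1, or 0.15 adjusted over 3 comparisons) and differed by 0.048 on the log2 scale with OD (exact permutation p = 0.7). Of the other tested genes within 100 kb of F7, also looked up afterwards, PROZ (protein Z) was called higher with CoCl2 (log2 fold change 1.47, or 0.97 and uncalled under library size alone). The other values with CoCl2 and with OD were −0.93 and 0.75 for MCF2L, −0.13 and −0.49 for PCID2, and 0.13 and −0.22 for CUL4A. Near FGG, PLRG1 had log2 fold changes of 0.89 with CoCl2 and −0.019 with OD.

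**Figure D4:**
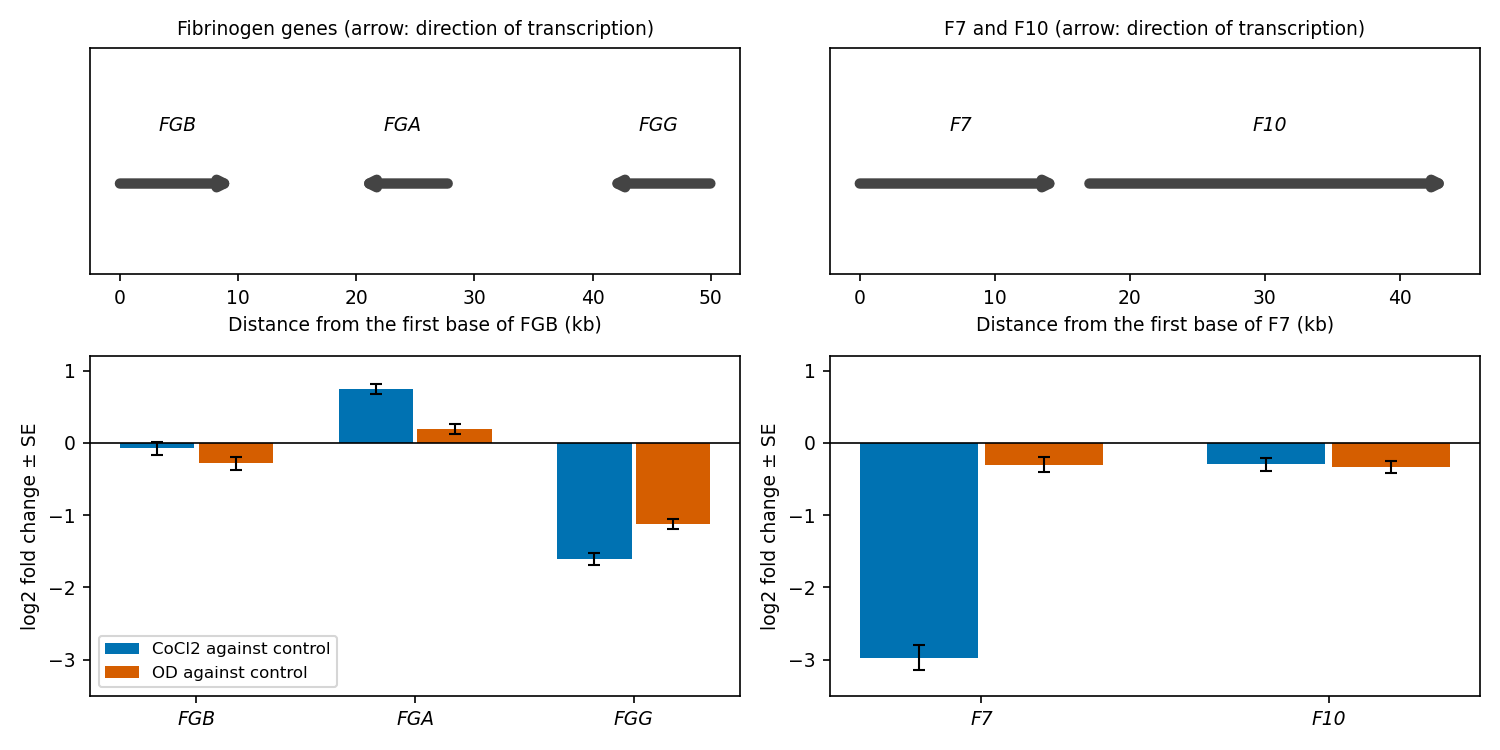
Upper panels place the fibrinogen genes and F7 with F10 by distance in kb, with arrows in the direction of transcription, and lower panels give their log2 fold changes with SE for CoCl2 (blue) and OD (orange) against control. FGA at 0.75 and FGG at −1.61 with CoCl2 lie 13391 bases apart, and F7 at −2.97 lies 2113 bases from F10 at −0.30.

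F2, on chromosome 11, encodes prothrombin. It stood at 45.5, 41.9 and 47.3 CPM in control cells, at 47.2, 46.1 and 49.3 CPM with CoCl2 and at 49.8, 47.3 and 49.1 CPM with OD. The lowest OD library lay just above the highest control, and those with CoCl2 overlapped both. The log2 fold change was 0.088 with CoCl2 (95% interval −0.026 to 0.20, adjusted p = 0.154), or −0.42 under library size alone, and 0.12 with OD (95% interval 0.011 to 0.23, adjusted p = 0.0542). CoCl2 against OD gave −0.033 (95% interval −0.14 to 0.079), or 0.011 with RLE factors and −0.58 (adjusted p = 1.03e-12) under library size alone. F5, on chromosome 1, encodes the cofactor of activated factor X and had only 4 to 11 counts per library, so its log2 fold changes of 0.24 with CoCl2 (95% interval −0.61 to 1.09, and −0.26 under library size alone) and −0.21 with OD (95% interval −1.07 to 0.65) do not exclude a 2-fold rise with CoCl2 or a 2-fold fall with OD.

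SERPINA1, AFP and TTR differed by less than 1 on the log2 scale in every comparison. SERPINA1, on chromosome 14, encodes the main inhibitor of neutrophil elastase in plasma and was the most abundant of the 10. It stood at 302.1, 277 and 294 CPM in control cells, at 366, 344 and 382 CPM with CoCl2 and at 282, 263 and 264 CPM with OD. The libraries with CoCl2 lay above all others, and control and OD overlapped. Its log2 fold change was 0.33 (SE 0.042, adjusted p = 3.2e-10) with CoCl2, but −0.18 under library size alone, −0.11 (adjusted p = 0.0233) with OD, and 0.43 (adjusted p = 2.12e-14) for CoCl2 against OD, but −0.11 under library size alone.

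AFP, on chromosome 4, encodes the albumin-like protein of fetal plasma. It stood at 37.7, 35.8 and 39.4 CPM in control cells, at 37.3, 40.0 and 37.5 CPM with CoCl2 and at 27.7, 28.8 and 28.3 CPM with OD. The libraries with OD lay below all others, and control and CoCl2 overlapped. With OD the log2 fold change was −0.41 (SE 0.061, adjusted p = 2.77e-08), under the fold threshold. With CoCl2 it was 0.023 (95% interval −0.097 to 0.14), or −0.48 under library size alone, and CoCl2 against OD gave 0.43 (adjusted p = 6.15e-09), or −0.11 under library size alone. ALB, its neighbour in the albumin family and looked up after its values were seen, had −0.59 with OD and 0.15 with CoCl2.

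TTR, on chromosome 18, encodes a carrier of thyroxine and of retinol-binding protein. It stood at 48.7, 48.0 and 47.8 CPM in control cells, at 64.6, 53.2 and 59.5 CPM with CoCl2 and at 45.2, 43.5 and 51.9 CPM with OD. The libraries with CoCl2 lay above all others, and control and OD overlapped. Its log2 fold change was 0.30 (SE 0.061, adjusted p = 1.47e-05) with CoCl2, but −0.21 under library size alone, −0.044 (95% interval −0.16 to 0.076) with OD, and 0.34 (adjusted p = 1.03e-06) between the treatments, but −0.20 under library size alone. The values under library size alone that turned F2, F5, SERPINA1, AFP and TTR negative with CoCl2 were all smaller in size than the −0.55 of the median gene in that scaling.

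Other genes of coagulation moved in both directions with CoCl2. Of 25 other coagulation and anticoagulation genes 16 were tested, and 6 rose and 4 fell with CoCl2 (5 and 7 under library size alone), with a median log2 fold change of −0.014. The shares of all tested genes called with CoCl2 were 19.9% for rises and 23.4% for falls, and with OD 13.3% in either direction. With OD 1 of the 16 was called, SERPINC1 (antithrombin), which rose by 1.27 and is named after its value was seen. F11, F13A1, KLKB1 and PLG had no count in any library, which does not exclude levels too low to be counted at these depths. TFPI, the inhibitor of the tissue factor pathway, rose from 81.4 ± 2.28 to 245 ± 16.9 CPM (log2 fold change 1.59, adjusted p = 6.83e-40), and PROCR, the receptor of protein C, rose from 3.02 ± 0.670 to 15.1 ± 1.63 CPM (2.33, adjusted p = 7.66e-26). SERPIND1 (heparin cofactor II) rose by 1.78 and VWF (von Willebrand factor) by 1.61, the latter, which is also one of the endothelial markers, with 6 to 8 counts in control cells and 16 to 20 with CoCl2. PROZ rose by 1.47, but by 0.97 and uncalled under library size alone. HRG (histidine-rich glycoprotein) had 2 to 4 counts per control library, 23 to 29 with CoCl2 and 3 to 4 with OD.

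SERPINA10, the inhibitor that acts with protein Z on activated factor X, was the member of that list with the largest fall with CoCl2, from 6.38 ± 0.580 to 1.00 ± 0.273 CPM (log2 fold change −2.67, adjusted p = 3.37e-20), and stood at 5.91 ± 0.322 CPM with OD. THBD (thrombomodulin), which turns thrombin toward protein C, had −1.73 with CoCl2 and −0.38 with OD. The other 2 that fell, named after their values were seen, were F12 (factor XII) at −1.25 and SERPINA5 (protein C inhibitor) at −1.37.

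Of 10 genes of the vitamin K cycle and of clotting factor secretion, all tested, 1 was called with each treatment. Of all tested genes, 43.2% were called with CoCl2 and 13.3% with OD. SAR1B, a GTPase of vesicles that leave the endoplasmic reticulum, rose with CoCl2 (1.12, or 0.61 and uncalled under library size alone). VKORC1, which regenerates vitamin K, rose with OD from 9.01 ± 0.930 to 18.3 ± 2.08 CPM (1.03, adjusted p = 1.98e-15), a value at the threshold whose call was lost without Control replicate 2, OD replicate 1 or OD replicate 2, with glmTreat and with counts thinned to the smallest library. The list medians were 0.20 with CoCl2 and 0.092 with OD.

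Of 39 other liver plasma proteins 20 were tested, of which 1 rose and 5 fell with CoCl2 and 2 rose and 1 fell with OD, with medians of −0.068 and −0.22, where 43.2% and 13.3% of all tested genes were called. SERPINA7, CRP and APCS had no count in any library. AMBP, the precursor of alpha-1-microglobulin and bikunin, rose with CoCl2 (1.71, adjusted p = 9.80e-11). SERPINA4 (kallistatin) fell with CoCl2 by 1.36 on the log2 scale and LRG1, a leucine-rich glycoprotein with 17 to 31 counts in control cells and 4 to 7 with CoCl2, had −2.06. CP (ceruloplasmin), the copper-carrying ferroxidase, fell from 1.94 ± 0.155 to 0.736 ± 0.266 CPM with CoCl2 (log2 fold change −1.33) and rose to 4.48 ± 0.241 CPM with OD (1.21), both calls being lost with glmTreat. AFM (afamin), of the albumin family, had 11 to 17 counts in control cells, 3 to 4 with CoCl2 and 1 to 4 with OD. HGFAC, the activator of hepatocyte growth factor, had 3 to 8, 0 to 3 and 25 to 39 counts, and its call with CoCl2 was lost by DESeq2 and without Control replicate 2 or 3 or CoCl2 replicate 2 or 3. AGT (angiotensinogen) was called only between the treatments, lower with CoCl2 than with OD (−1.26).

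Of 22 transcription factors of hepatocyte-type expression 21 were tested, of which 3 rose and 4 fell with CoCl2 (2 and 8 under library size alone) and 1 fell with OD, with medians of −0.18 and 0.11, where 43.2% and 13.3% of all tested genes were called. HNF4A, named after its values were seen, was not called (0.41 with CoCl2, 0.46 with OD). CEBPD fell with CoCl2 (−1.87) and CEBPB rose (1.31, or 0.80 and uncalled under library size alone). With OD CEBPB stood at the threshold (0.99, adjusted p = 1.98e-20). It was called by both DESeq2 fits (1.00), with upper-quartile factors (1.02) and under library size alone (1.03). The call was also made with its own 6 libraries, with at least 10 counts in every library and without Control replicate 3, OD replicate 1 or OD replicate 3. A called CEBPB would make 1 higher and 1 lower with OD. NR5A2 rose by 1.83 and ZBTB20 by 1.56. FOXA1 fell with OD from 74.6 ± 0.678 to 26.7 ± 0.978 CPM (−1.48, adjusted p = 4.99e-33) and had −0.74 with CoCl2 (−1.25 and called under library size alone). GATA4 had 18 to 23 counts in control cells, 0 to 3 with CoCl2 and 22 to 32 with OD, and NR2F1 had 15 to 17, 3 in each and 10 to 24.

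**Figure D5:**
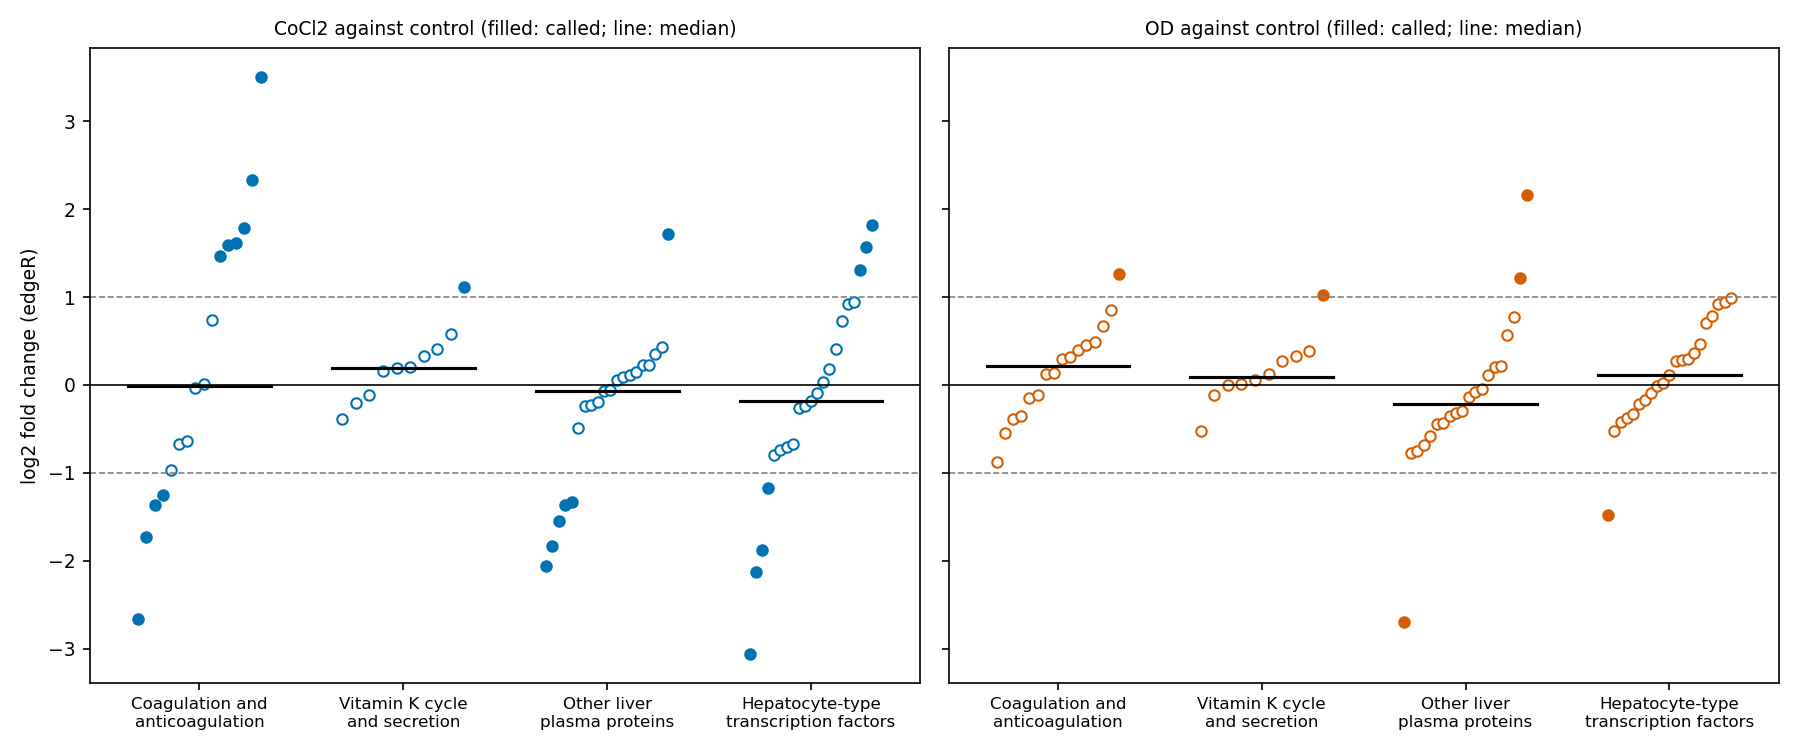
The log2 fold change of each tested gene (points, filled where called) in 4 lists, against control for CoCl2 (left) and OD (right), with the list median as a line and dashed lines at −1 and 1. Points spread to both sides of 0 in the coagulation list with CoCl2 (median −0.014) and lie mostly between −1 and 1 with OD (median 0.21).

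Across the 9 libraries, the genes whose log2 CPM was most like the mean of the fibrinogen chains were SORD (Pearson's r = 0.973), STX10 (0.964), ST7L (0.956), THAP7 (0.955) and NDUFS6 (0.950), of 13420 genes averaging 1 CPM or more. These values describe likeness over libraries that share 3 conditions and were not tested. The chains themselves differed, with r of −0.84 between FGA and FGG, 0.098 between FGA and FGB and 0.37 between FGB and FGG over the same 9 libraries, so likeness to their mean describes no single chain. SORD, which encodes sorbitol dehydrogenase, stood at 45.8 CPM in control cells, 31.7 CPM with CoCl2 and 29.5 CPM with OD.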

How the data were processed

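Messenger RNA of uCaco-2 cells was measured in 9 libraries, 3 per condition, grouped by their labels. The authors checked reads with FastQC 0.11.9, trimmed adapters with cutadapt 2.10, mapped them on GRCh38.p13 with STAR 2.7.5b and deposited raw counts per gene symbol of GENCODE release 34, without normalization. The counting tool and its strand setting are not given in the sources used here, so overlapping genes are uncertain. No sample column was left unused.

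edgeR 4.0.16 in R 4.3.3 gave TMM factors, its expression filter (minimum count 10) and a robust quasi-likelihood fit over all 9 libraries with Benjamini-Hochberg adjustment over 15944 symbols. Calls needed an adjusted p below 0.05 together with a log2 fold change beyond ±1. Intervals are 1.96 SE to each side (95%). Lengths and positions came from GENCODE release 44 on GRCh38, promoter windows from RefSeq. Ratios were taken from the raw counts without a pseudocount and compared by exact permutation tests.

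At these depths, standard errors ranged from 0.042 (SERPINA1) to 0.440 (F5) on the log2 scale. Replicates differed beyond sampling noise (chi-square per degree of freedom 1.82 to 3.32), so none was merged. On simulated data 186 of 200 changed genes were recovered with CoCl2 against control among 15457 genes, with 0 wrong signs and 1 false call. Of the 200, 189 passed the filter. In the data 43.2% of all tested genes were called with CoCl2, so the simulation does not cover a shift of that extent or the choice of scaling.

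The members, the gene lists and the alternatives were chosen with earlier results of these data known. The genes named are the 10 members, up to 8 called genes per list by size of change against control, and the 5 genes most like fibrinogen; other names are marked in the text. Alternatives were DESeq2 1.42.0, other factors, filters and thresholds, the replicate block, each library left out and counts thinned to the smallest library. The values of some genes of these lists are not reported here.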

Additional observations from a re-analysis of the deposited data

How the results depend on the processing

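Of 621 recomputed values for the 10 genes, 576 kept their direction and their side of the threshold, 17 gained a call, 1 lost it and 27 changed sign. DESeq2 on 9 or 6 libraries changed no call or sign of the members. With each library left out in turn, the counts of called members ranged from 2 to 2 lower with CoCl2, 1 to 1 with OD and 1 to 1 for CoCl2 against OD, with 0 to 0 higher. FGG then ranged from −1.70 to −1.55 with CoCl2 and from −1.21 to −1.05 with OD, and F7 from −3.16 to −2.84 with CoCl2. By edgeR's adjusted p alone, 3 members were higher and 3 lower with CoCl2, 1 higher and 6 lower with OD, and 5 higher and 2 lower for CoCl2 against OD. The counts with OD depend on the tool. DESeq2 on 9 libraries gave adjusted p of 0.0503 for FGA, 0.0689 for FGB and 0.163 for F7 with OD, while F10 stayed under 0.05 at 0.0133. With glmTreat 0 members were lower with OD, and with library size alone 2 were lower for CoCl2 against OD (FGG and F7). The cause of these changes was not tested, apart from the looser or stricter threshold.

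Library size alone, which moved the median of all genes to −0.55 with CoCl2 and to −0.60 for CoCl2 against OD, turned the sign with CoCl2 of F2 (−0.42), F5 (−0.26), SERPINA1 (−0.18), AFP (−0.48) and TTR (−0.21), and for CoCl2 against OD of FGB (−0.34), F5 (−0.087), F10 (−0.51), SERPINA1 (−0.11), AFP (−0.11) and TTR (−0.20). Upper-quartile factors turned F2 (−0.012) and AFP (−0.077) with CoCl2 and F10 (−0.097) for CoCl2 against OD, where RLE factors turned F2 (0.011). Without the count filter AFP was −0.042 with CoCl2 and F10 −0.030 for CoCl2 against OD. With at least 10 counts in every library these were −0.0058 and −0.019, and F10 was −0.022 with thinned counts. Signs also turned with CoCl2 for FGB without Control replicate 1 (0.0061) or CoCl2 replicate 1 (0.013), F5 without Control replicate 2 (−0.0071) or CoCl2 replicate 2 (−0.14), and AFP without Control replicate 2 (−0.019) or CoCl2 replicate 2 (−0.00045), where the highest values with a library left out were 0.58 for F5 and 0.050 for AFP, and with OD for TTR without OD replicate 2 (0.0094). F5 gave no value with its own 6 libraries, with at least 10 counts in every library or with thinned counts, since it did not pass those filters.

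Leaving out libraries, the log2 difference of the FGG to FGA ratio with CoCl2 ranged from −2.41 to −2.25. With OD it ranged from −1.38 to −1.26, and between the treatments from −1.08 to −0.94. That of FGB to FGA ranged from −0.88 to −0.78, −0.53 to −0.41 and −0.43 to −0.30. Same-numbered libraries of different conditions had correlations of −0.0049 to 0.038 in their deviations, and differently numbered ones −0.047 to 0.025. Of 9 libraries, 6 correlated best with their own number, so whether the numbers pair the libraries is not settled. With the replicate number as a block, FGG was −1.61 with CoCl2 and −1.12 with OD, F7 was −2.97 with CoCl2, and all 30 calls and signs of the members held. Low counts limit F5, HRG, AFM, HGFAC, GATA4 and NR2F1, and also the folds given for LRG1, VWF, PROZ and CP, each with under 10 counts in some libraries.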
